A study of Lytechinus variegatus with 8 samples.

Results

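The genes described here are the mucins and glycan-building secretory genes of the sea urchin Lytechinus variegatus, in the RNA of its secondary and primary spines. They were chosen by product name. A gene was taken when its name held mucin, IgGFc-binding, von Willebrand factor, polypeptide N-acetylgalactosaminyltransferase, protein disulfide or chitin. Names with von Willebrand factor A domain-containing or mucolipin were left out. Otogelin, anterior gradient and trefoil were searched too and matched 0 genes. The rule gave 200 of the 26814 genes in the deposited table. Of these, 131 are mucin-named, 13 are named polypeptide N-acetylgalactosaminyltransferases, 9 are protein disulfide isomerases, 6 are named IgGFc-binding, 2 carry other von Willebrand factor names and 4 carry chitin names. The other 35 are named sushi, von Willebrand factor type A, EGF and pentraxin domain-containing protein 1-like, written SVEP1-like below. In vertebrates SVEP1 is an extracellular matrix and cell adhesion protein, not a mucin.

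Spine RNA was sequenced from 4 wild-caught animals of the white-and-green color morph, labelled wild type, with no treatment. The secondary spine group held 4 libraries of 100 pooled spines each and the primary spine group held 4 libraries of 50 pooled spines each, 1 of each kind per animal. Whole spines went into the extraction, with their epidermal, muscle, nerve, connective and skeleton-forming cells, and fewer cells of a type cannot be told apart from less RNA per cell.

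Mucins are long secreted or membrane-bound proteins whose serine- and threonine-rich stretches carry dense O-linked sugars, and echinoderm epidermis is covered by mucus. Polypeptide N-acetylgalactosaminyltransferases add the first sugar of each O-glycan in the Golgi, and other glycosyltransferases extend it, branch it and cap it. Gel-forming mucins and IgGFc-binding proteins carry cysteine-rich von Willebrand factor type D domains, whose disulfide bonds are formed with the help of protein disulfide isomerases in the endoplasmic reticulum (ER).

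Libraries held 9252184 to 10738336 counted reads in secondary spines and 9623336 to 10902546 in primary spines. Levels are read counts scaled by library total and TMM factor (CPM) where libraries are compared, and the authors' FPKM, which divide by gene length, where genes are compared. Log2 fold changes are secondary minus primary with their standard error, from edgeR's quasi-likelihood test over 16788 genes, and a gene was called at a Benjamini-Hochberg adjusted p under 0.05. The same test with the animal as a block is given where it changed a call. In counts simulated at the fit's common spread for all genes and without animal effects, the test without the block called 2% of genes changed by 1 log2 unit. Real genes differ in spread, so the share called among them may differ. The lack of a call is not taken as evidence of no change. Ciliated cell markers, such as axonemal dyneins and tektins, set the samples apart: their summed level was 6900 to 8891 CPM in secondary and 1301 to 2741 CPM in primary spines, and 59 of the 69 that passed the filter on low counts were called higher. Of the 77 in that list, 4 had no read in secondary and 5 had none in primary spines. Skeletogenic markers, such as spicule matrix proteins, had reads for all but 3 of 27 genes, with summed levels of 760 to 2061 CPM in secondary and 656 to 1654 CPM in primary spines. Neuron markers did not overlap either, at 1374 to 1855 CPM in secondary and 1875 to 2404 CPM in primary spines, although 1 of 7 was called higher and 0 lower. In 6 of these 7 the log2 fold change was above 0, with a median of 0.26, so the lower sum does not hold for most of the list. Muscle markers overlapped, at 2559 to 3374 and 2588 to 3143 CPM, with 5 of 32 called higher and 1 lower. Pigment and immune cell markers overlapped too, at 5699 to 7501 and 6920 to 8217 CPM.

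Most mucin-named genes had no match to a known protein. The most frequent names were mucin-17-like (26 genes), mucin-2-like (25) and mucin-5AC-like (25). In the deposited annotation 90 of the 131 (68.7%) had no Swiss-Prot match at all, 12 matched Mucin-4 and 1 matched Mucin-6. The other 28 matched proteins that are not gel-forming mucins, among them the extracellular matrix protein hyalin (5 genes), SCO-spondin (4), Agrin, the scavenger receptor M160, the metalloprotease ADAMTS15 and Fibroblast growth factor receptor 1. A von Willebrand factor type D domain was annotated in 16, a C8 domain in 5, a nidogen-like domain in 11, a SEA domain in 6 and an EGF domain in 22. A mucin name below is therefore the name in the table, and the match or domain is given where there was one. Reads of genes that resemble each other may have been split or shared in the counting, and how alike these sequences are was not examined.

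The genes took a small share of the reads. Together they held 0.717 to 0.756% of the reads in secondary spines and 0.604 to 0.704% in primary spines. After TMM scaling, which allows for the other RNA in a library, this separation was gone: the summed level was 6844 to 7102 CPM in secondary and 6213 to 7652 CPM in primary spines. The mucin-named genes alone held 0.292 to 0.396% in secondary and 0.215 to 0.247% in primary spines, or 2748 to 3723 CPM in secondary and 2210 to 2520 CPM in primary spines, without overlap on either scale. Without LOC121421077, described below, their shares were 0.242 to 0.301% in secondary and 0.212 to 0.238% in primary spines, still apart, but their summed levels overlapped, at 2337 to 2826 CPM in secondary and 2209 to 2434 CPM in primary spines.

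Many of the 200 had few reads. No read fell on 25 of them, 24 of which are mucin-named, and 107 (53.5%) passed the filter on low counts, against 62.6% of all genes. Among the mucin-named genes 55 of 131 (42%) passed. The mean FPKM over the 8 libraries reached 1 in 94 of the 200, 10 in 37 and 50 in 6. The 6 were the protein disulfide isomerase LOC121422269 (157 FPKM), the mucin-5AC-like LOC121431140 (69.2 FPKM), the mucin-4-like LOC121421077 (64.1 FPKM), the protein disulfide isomerase A3-like LOC121415355 (57.8 FPKM) and the SVEP1-like LOC121428488 (54.6 FPKM) and LOC121415649 (54.2 FPKM).

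In secondary against primary spines, edgeR called 4 of the 107 higher (3.74%) and 0 lower. Over all genes tested it called 7.81%, with 5.88% higher and 1.93% lower. In this fit, which leaves out the pairing by animal, the share among these genes was thus below the background. At an unadjusted p under 0.05 the counts were 9 higher and 10 lower, and DESeq2 called 6 higher and 5 lower. With the animal as a block, edgeR called 12 higher and 18 lower, 28% of the 107, against 24.1% of all genes, of which 12.4% were higher and 11.7% lower. Of these 30 blocked calls among the 107, 26 were not called without the block. The median log2 fold change of the 107 was 0.01, against -0.03 over all genes tested. All 4 calls, and 11 of the 12 higher blocked calls, were mucin-named genes. Of the 18 lower blocked calls 8 were mucin-named, 5 were SVEP1-like, 3 were protein disulfide isomerases, 1 was a polypeptide N-acetylgalactosaminyltransferase and 1 was IgGFc-binding.

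**Figure D1:**
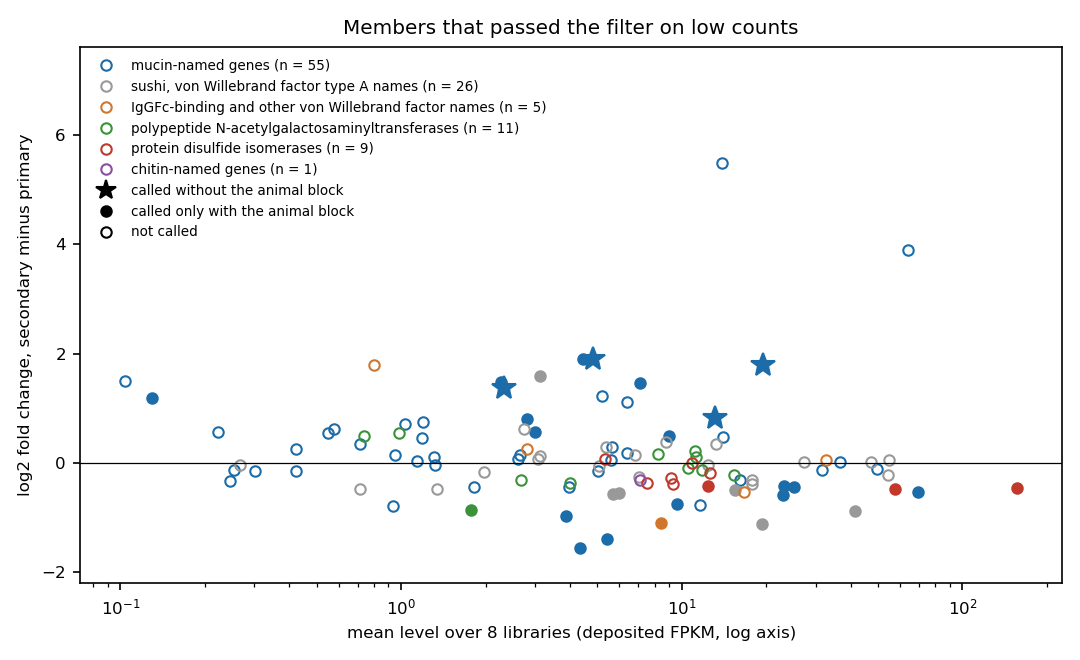
Log2 fold change (secondary minus primary, vertical axis) against the mean deposited FPKM over 8 libraries (log axis) for the 107 members that passed the filter, colored by name group. Stars are the 4 genes called by edgeR, filled circles those called with the animal as a block and not without it, and open circles the rest; the 2 open circles furthest up, LOC121425286 and LOC121421077, were not called by either fit.

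The call with the smallest p was LOC121424405, a mucin-2-like gene on chromosome 11 (5294383 to 5337255) with no Swiss-Prot match and no annotated domain. Its level was 167, 147, 155 and 130 CPM in the secondary spines of animals 1 to 4, against 46.7, 32.5, 54.5 and 39.0 CPM in their primary spines. Every secondary library was above every primary library, and the ratio of the means was 3.47. The log2 fold change was 1.79 ± 0.18 (edgeR adjusted p = 0.00127), and within animals the 4 differences of log2 CPM were 1.84, 2.17, 1.502 and 1.73. The kind of spine held 94.5% of the variance of its log2 CPM and the animal 3.85%, where the medians over all genes tested were 13.8% and 65.0%. The call was kept without each of the 8 libraries in turn.

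A pair of mucin-17-like genes, both with annotated domains, were also called higher. LOC121408234 (chromosome 2, 48886160 to 48925230), with a domain of unknown function, stood at 60.6, 82.8, 74.5 and 76.3 CPM in secondary spines and at 41.4, 46.8, 40.5 and 36.9 CPM in primary spines. LOC121410456 (chromosome 3, 20461390 to 20486603), with dystroglycan domains, which in animals bind extracellular matrix at the cell surface, stood at 32.6, 22.7, 26.2 and 21.2 CPM in secondary spines and at 11.9, 7.58, 12.02 and 7.91 CPM in primary spines. In both genes the groups did not overlap and all 4 animals had the higher value in secondary spines. The log2 fold change was 0.83 ± 0.14 for LOC121408234 (edgeR adjusted p = 0.00798). It was 1.38 ± 0.23 for LOC121410456 (edgeR adjusted p = 0.00861), a gene that overlaps LOC121410457, whose reads may not be told apart from its own. Both calls were kept without each of the 8 libraries.

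The fourth was LOC121409342, an integumentary mucin A.1-like gene on chromosome 2 (4367978 to 4381705), named after a skin mucin of frogs, with no Swiss-Prot match or domain. Its level was low, at 5.91, 6.92, 4.27 and 2.72 CPM in secondary spines and 1.51, 1.20, 1.79 and 0.748 CPM in primary spines. The groups did not overlap, with a ratio of the means of 3.78. The log2 fold change was 1.91 ± 0.43 (edgeR adjusted p = 0.0305), but of the 8 fits that left out a library only that without secondary library 4 kept the call, and the other 7 gave an edgeR adjusted p of 0.0501 to 0.0974. With the animal as a block its edgeR adjusted p was 0.00394.

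A larger difference, in an abundant gene, was not called. LOC121421077, a mucin-4-like gene on chromosome 9 (9294307 to 9335258), carries the nidogen-like, von Willebrand factor type D and EGF domains of the membrane mucin Mucin-4, which it matches. Its level was 897, 186, 899 and 918 CPM in secondary spines, against 42.3, 56.1, 95.2 and 0.962 CPM in primary spines. All secondary libraries lay above all primary ones, with animal 2 low among the secondary and animal 4 close to 0 among the primary libraries. The log2 fold change was 3.90 ± 1.06 with an edgeR adjusted p of 0.0637, and 4.11 ± 1.37 with the animal as a block (edgeR adjusted p = 0.107). DESeq2 called it (adjusted p = 0.00302), and edgeR called it without primary library 4 (log2 fold change 3.49, edgeR adjusted p = 0.0175). In the other 7 fits without a library its edgeR adjusted p was 0.0693 to 0.159.

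**Figure D2:**
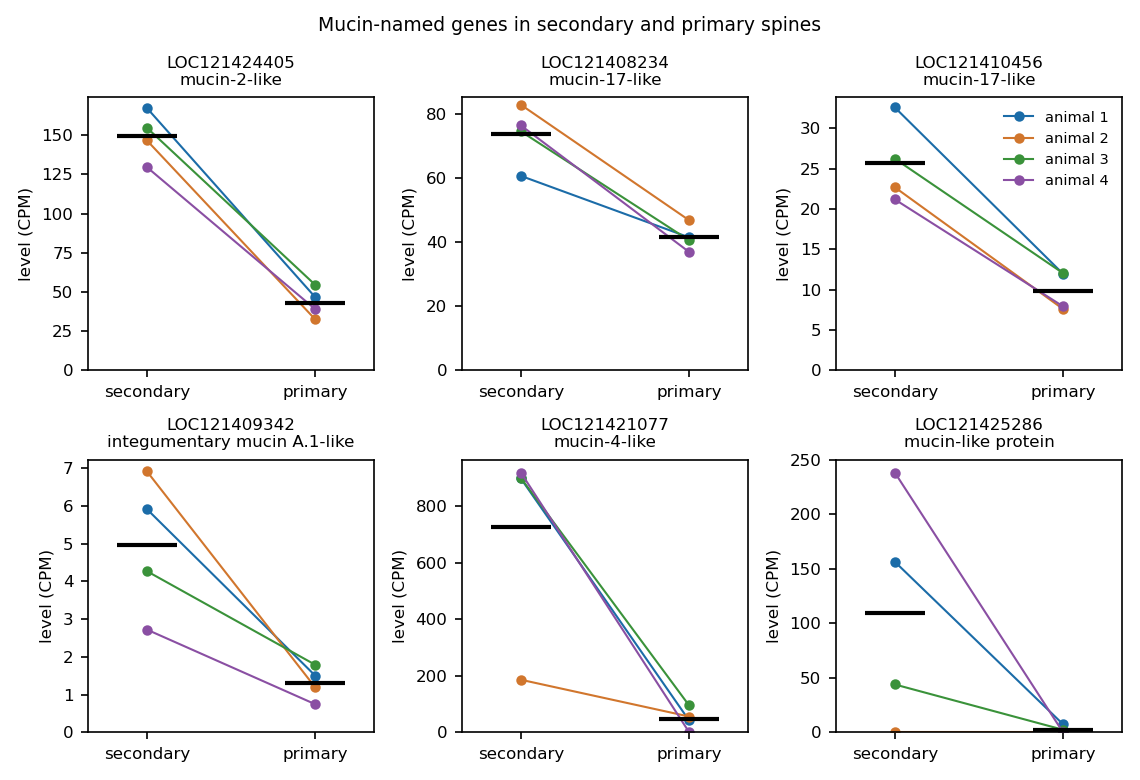
Level in CPM (vertical axis, starting at 0, its own scale in each panel) of 6 mucin-named genes in secondary spines (left) and primary spines (right), with a line for each animal and a black bar for the mean of 4 libraries. The first 4 genes were called; LOC121421077 and LOC121425286 have wider spreads, with animal 2 at 186 CPM for LOC121421077 and at 0 CPM for LOC121425286 in secondary spines.

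Values of 7 members lay wholly above, and of 7 wholly below, the primary values in the secondary libraries (6.54% each). Over all genes tested these shares were 9.47% and 5.69%. Above were the 4 called genes, LOC121421077, the mucin-17-like LOC121423627 and the mucin-5AC-like LOC121430537. LOC121423627, which carries a tyrosine kinase domain and matches Fibroblast growth factor receptor 1, had 126, 186, 132 and 138 CPM in secondary and 97.3, 125, 102 and 92.0 CPM in primary spines. The log2 fold change was 0.48 ± 0.16 without the block (edgeR adjusted p = 0.123) and 0.48 ± 0.09 with the animal as a block (edgeR adjusted p = 0.00656). Another of the blocked calls, the integumentary mucin C.1-like LOC121424266, held 21.9, 2.75, 4.07 and 7.73 CPM in secondary and 10.1, 1.10, 0.738 and 1.07 CPM in primary spines. Its groups overlapped because animal 1 was high in both kinds of spine, and each animal had its higher value in secondary spines (blocked log2 fold change 1.79 ± 0.33, edgeR adjusted p = 0.00738; without the block, edgeR adjusted p = 0.514).

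Other mucin-named genes had lower levels in secondary spines. In edgeR 8 of the 55 tested were called lower with the animal as a block and 0 without it, and DESeq2 without a block called 3. With the block 11 of the 55 were called higher. Over all genes tested 11.7% were called lower and 12.4% higher with the block. The median log2 fold change of the 55 was 0.14. The most abundant mucin-named gene, LOC121431140 (chromosome 17, 28743251 to 28758831), named mucin-5AC-like, has scavenger receptor cysteine-rich domains and matches the scavenger receptor M160. It stood at 145, 183, 161 and 230 CPM in secondary and at 241, 268, 221 and 314 CPM in primary spines. Its value was lower in the secondary spines of all 4 animals, although secondary library 4 lay above primary library 3. The log2 fold change was -0.54 ± 0.17 without the block (edgeR adjusted p = 0.113) and -0.55 ± 0.09 with it (edgeR adjusted p = 0.00423), and DESeq2 without the block called it (adjusted p = 0.0432). LOC121421814, a mucin-like gene that matches Mucin-4, had 12.4, 4.78, 20.1 and 1.49 CPM in secondary and 44.7, 8.87, 45.0 and 2.35 CPM in primary spines, so animals 1 and 3 were high in both. The animal held 86.9% of its variance, and the blocked log2 fold change was -1.25 ± 0.20 (edgeR adjusted p = 0.00435; without the block, edgeR adjusted p = 0.554). The integumentary mucin A.1-like LOC121420501, which shares its product name with LOC121409342 and was singled out after its values were seen, went the other way, with 2.71, 0.508, 3.28 and 3.60 CPM in secondary and 10.2, 5.18, 6.01 and 8.23 CPM in primary spines. These groups did not overlap, and the blocked log2 fold change was -1.64 ± 0.35 (edgeR adjusted p = 0.0149; without the block, edgeR adjusted p = 0.142 and DESeq2 adjusted p = 0.0406).

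The 12 genes that match Mucin-4, of which 11 lie on chromosome 9, had differences in both directions. Of the 9 that passed the filter, edgeR called 0, 5 had a log2 fold change above 0, and with the animal as a block 3 were called lower and 0 higher. At an unadjusted p under 0.05 there were 2 higher and 1 lower, and DESeq2 called 1 higher. Their summed level was 443 to 1285 CPM in secondary and 76.9 to 479 CPM in primary spines, of which LOC121421077 gave 186 to 918 CPM in secondary and 0.962 to 95.2 CPM in primary spines. Beside LOC121421077 stands LOC121425286 (chromosome 12, 7065820 to 7107406), with 157, 0, 44.0 and 238 CPM in secondary and 7.42, 0, 2.43 and 0 CPM in primary spines. It was high in the secondary spines of animals 1, 3 and 4 and had no read in either library of animal 2 (log2 fold change 5.48 ± 1.88, edgeR adjusted p = 0.136; with the animal as a block, edgeR adjusted p = 0.0627).

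LOC121425286 was not alone in its presence in some animals and near absence in others. A gene was counted when both libraries of 1 animal or more held at least 2 CPM and both libraries of another held at most 0.3 CPM. This held for 10 of the 108 members that reached 2 CPM in both libraries of an animal (9.26%), against 4.98% of 16404 such genes over the whole table. At 5 and 0.5 CPM the count was 5 of 94 (5.32%, against 3.52%), and at 1 and 0.2 CPM it was 12 of 118 (10.2%, against 6.17%). Of the 10 genes 8 are mucin-named and 2 are SVEP1-like. The mucin-17-like LOC121423081 had 9.31 CPM in secondary and 11.7 CPM in primary spines of animal 1 and at most 0.199 CPM in the other libraries. The SVEP1-like LOC121421032 had 10.7 and 11.3 CPM in secondary and 13.0 and 11.4 CPM in primary spines of animals 2 and 4, against 0.097 and 0 CPM in secondary and 0.430 and 0 CPM in primary spines of animals 1 and 3. In both genes high and low levels went with the animal, in both kinds of spine. The rule required this of an animal at each level.

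Several of these genes lie next to each other. On chromosome 17 the mucin-2-like LOC121431156, LOC121431158 and LOC121431161 lie between 2104253 and 2235555. In animal 2 they held 15.1, 4.37 and 10.7 CPM in secondary and 3.39, 2.29 and 2.19 CPM in primary spines, and in the other animals at most 0.298 CPM in secondary and 0.527 CPM in primary spines. On chromosome 9 the mucin-like LOC121421947 and LOC121421976 are not neighbors. The first lies between 30055352 and 30218947 and the second between 31817400 and 32164050. Both were highest in animal 3, with 3.87 and 5.76 CPM in secondary and 2.95 and 4.85 CPM in primary spines. Near LOC121421976 lies the mucin-2-like LOC121421979, whose level was 0.291, 36.8, 4.17 and 2.64 CPM in secondary and 0, 23.5, 2.43 and 0.214 CPM in primary spines. It was highest in animal 2 and lowest in animal 1 in both kinds of spine.

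**Figure D3:**
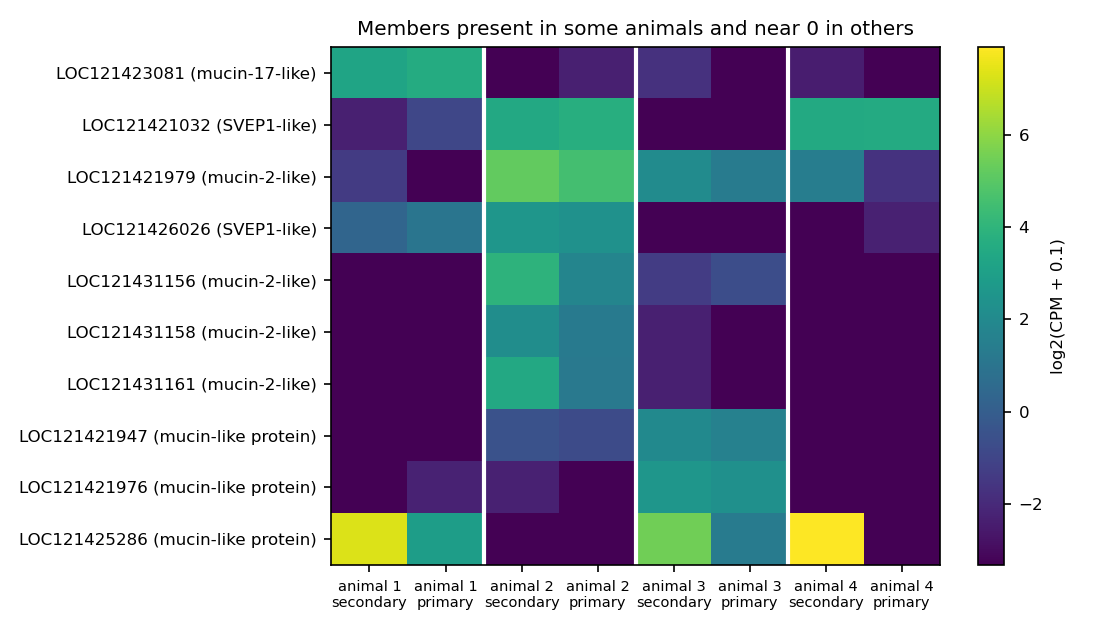
Level, as log2 of CPM plus 0.1 (color), of the 10 members present in some animals and near 0 in others, in secondary (left) and primary (right) spines of each animal. Genes were chosen for being present in both libraries of an animal and near 0 in both of another. Agreement within those animals was therefore fixed by the choice. LOC121425286 differs between the libraries of an animal. It had 157, 44.0 and 238 CPM in secondary spines of animals 1, 3 and 4 and at most 7.42 CPM in primary spines.

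Much of the spread among libraries went with the animal. The median share of variance held by the animal was 63.8% over the 107 and 65.0% over all genes tested, and the kind of spine held 15.0% and 13.8%. The median SD of log2 CPM over the 8 libraries was 0.67 for the 107, 0.80 for the mucin-named genes and 1.07 for the matches to Mucin-4, against 0.47 over all genes tested. These sets of genes were not matched for level, and what part low counts have in the larger SD was not tested.

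Many members lay beside each other on a chromosome. They were counted as a run where at least 3 followed each other with steps of at most 5 genes. The 8 runs held 48 members, of which 6 passed the filter (12.5%), against 101 of the 152 members outside runs (66.4%). A run of 11 on chromosome 14 (5233310 to 5511868) held 55 reads over all 4 secondary and 71 reads over all 4 primary libraries, and a run of 8 on the same chromosome (3703078 to 4043473) held 162 reads in secondary and 152 in primary libraries. A run of 7 on chromosome 13 (6895710 to 7424642) holds the mucin-2-like LOC121426614, which has von Willebrand factor type D and C8 domains and is the sole match to Mucin-6, a gel-forming mucin of vertebrates. LOC121426614 had 60 reads in secondary and 16 in primary spines over all libraries and did not pass the filter. Its neighbor LOC121426608, mucin-19-like, held 1612 reads in secondary and 1371 in primary spines, most of the reads of that run. The 5 mucin-named genes with a C8 domain, namely LOC121426614 and the 4 matches to SCO-spondin, summed to 10.3 to 27.6 CPM in secondary and 4.84 to 28.1 CPM in primary spines. The 16 with a von Willebrand factor type D domain, LOC121421077 among them, summed to 438 to 1305 CPM in secondary and 90.8 to 470 CPM in primary spines.

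IgGFc-binding genes, which in mammals are made by mucus-secreting cells, were expressed in both kinds of spine. Of the 4 that passed the filter edgeR called 0, as did DESeq2, and 0 had an unadjusted p under 0.05. The most abundant, LOC121425028 (32.7 FPKM), had 63.1, 58.0, 154 and 65.5 CPM in secondary and 67.0, 115, 93.5 and 54.0 CPM in primary spines. The groups overlapped, and animal 3 was high in secondary spines (log2 difference 0.05 ± 0.37, edgeR adjusted p = 0.981). LOC121429667 (16.7 FPKM) had 42.8, 66.2, 34.4 and 49.0 CPM in secondary and 70.8, 113, 34.5 and 58.1 CPM in primary spines (log2 fold change -0.52 ± 0.35, edgeR adjusted p = 0.520). LOC121424486 split the animals, at 2.33, 36.9, 0.993 and 35.3 CPM in secondary and 2.90, 74.1, 1.79 and 82.9 CPM in primary spines. Animals 2 and 4 were high in both, and the animal held 96.6% of the variance (blocked log2 fold change -0.96 ± 0.16, edgeR adjusted p = 0.00488; without the block, edgeR adjusted p = 0.796).

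Of the 35 SVEP1-like genes 26 passed the filter, edgeR called 0 (2 lower at an unadjusted p under 0.05, 1 lower by DESeq2), and with the block 1 was called higher and 5 lower. Over all genes tested edgeR called 24.1% with the block, 12.4% higher and 11.7% lower. LOC121423465 (chromosome 11, 14731381 to 14801935), with a SEA domain, had 89.7, 152, 191 and 83.7 CPM in secondary and 204, 282, 428 and 206 CPM in primary spines. No secondary value reached a primary one, and the blocked log2 fold change was -1.13 ± 0.10 (edgeR adjusted p = 0.000318; without the block, edgeR adjusted p = 0.0969 and DESeq2 adjusted p = 0.0149). The higher one, LOC121425924, held 4.56, 196, 10.03 and 12.4 CPM in secondary and 2.04, 59.5, 5.27 and 7.59 CPM in primary spines, with animal 2 far above the rest in both. Its blocked log2 fold change was 1.18 ± 0.19 (edgeR adjusted p = 0.00417; without the block, edgeR adjusted p = 0.661). The abundant LOC121428488, at 198 to 449 CPM in secondary and 219 to 449 CPM in primary spines, and LOC121415649, at 169 to 603 CPM in secondary and 219 to 759 CPM in primary spines, were not called by either fit, with edgeR adjusted p of 0.966 and 0.900.

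The enzymes that start O-glycans were expressed in both kinds of spine, with summed levels that overlapped. Of the 13 polypeptide N-acetylgalactosaminyltransferases 11 passed the filter, edgeR called 0 (1 lower at an unadjusted p under 0.05, 0 by DESeq2), and their summed level was 254 to 313 CPM in secondary and 290 to 310 CPM in primary spines. Of the 13, 10 lie on chromosome 13. The most abundant, LOC121426392 (type 1-like, 15.4 FPKM), had 97.9, 96.6, 96.7 and 77.6 CPM in secondary and 103, 113, 110 and 107 CPM in primary spines. The secondary values all lay below the primary ones, with a log2 difference of -0.23 ± 0.11 (edgeR adjusted p = 0.323). LOC121426288 (type 11-like, 11.8 FPKM) had 55.0, 22.5, 23.4 and 20.03 CPM in secondary and 51.0, 29.9, 25.4 and 25.7 CPM in primary spines, with animal 1 high in both (edgeR adjusted p = 0.940). With the animal as a block 1 was called, the low-level LOC121426916, named inactive, at 1.73 to 3.18 CPM in secondary and 3.10 to 6.22 CPM in primary spines (log2 fold change -0.84 ± 0.24, edgeR adjusted p = 0.0382; without the block, edgeR adjusted p = 0.253).

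All 9 protein disulfide isomerases passed the filter. Their summed level was 697 to 969 CPM in secondary and 1015 to 1391 CPM in primary spines, and these ranges do not overlap, although edgeR called 0 of the 9 (2 lower at an unadjusted p under 0.05, 1 lower by DESeq2). The median log2 fold change was -0.37, and 7 of the 9 were below 0. LOC121422269 (chromosome 10, 26863147 to 26879413), the most abundant member of all 200, had 571, 378, 543 and 577 CPM in secondary and 892, 607, 608 and 750 CPM in primary spines. Every secondary value was below every primary value (log2 fold change -0.47 ± 0.18, edgeR adjusted p = 0.199; with the animal as a block, edgeR adjusted p = 0.0247). LOC121415355, protein disulfide isomerase A3-like, a partner of the glycoprotein chaperones calnexin and calreticulin in mammals, had 197, 147, 147 and 143 CPM in secondary and 264, 226, 192 and 204 CPM in primary spines. It was lower in secondary spines within each of the 4 animals (log2 fold change -0.48 ± 0.15, edgeR adjusted p = 0.106, DESeq2 adjusted p = 0.0405; with the animal as a block, edgeR adjusted p = 0.00574). The third blocked call was LOC121407582, TMX3-like, at 16.7 to 39.4 CPM in secondary and 18.6 to 56.1 CPM in primary spines (blocked edgeR adjusted p = 0.0429; without the block, edgeR adjusted p = 0.653).

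Of the 4 chitin-named genes, the chitinase domain-containing LOC121424673 passed the filter, with 11.9, 20.6, 14.8 and 14.1 CPM in secondary and 24.2, 20.6, 16.9 and 15.0 CPM in primary spines (log2 fold change -0.32 ± 0.23, edgeR adjusted p = 0.562). The chitin-binding lectin LOC121420906 was at most 1.14 CPM in secondary and 0.299 CPM in primary spines and was not tested.

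The other steps of glycan building were read from lists of product names. Of the 34 tested O-glycan core and extension enzymes edgeR called 0 and the median log2 fold change was 0.11 (with the block, 3 were higher and 2 lower). Of 28 sialyltransferases, which cap glycans with sialic acid, 0 were called (2 higher and 1 lower with the block), of 27 fucosyltransferases 0 (1 higher and 2 lower), and of 10 galactose and GlcNAc sulfotransferases 0 (0 higher and 1 lower). At an unadjusted p under 0.05 these 4 lists held 6 higher and 4 lower genes, and DESeq2 called 3 higher and 2 lower. Over all genes tested edgeR called 7.81% without the block and 24.1% with it, and DESeq2 called 12.9%. The most abundant of the core list, the beta-1,3-galactosyltransferase 5-like LOC121423738, had 51.9, 37.9, 48.5 and 52.5 CPM in secondary and 42.6, 37.4, 42.0 and 42.9 CPM in primary spines (log2 fold change 0.21 ± 0.14, edgeR adjusted p = 0.512). The alpha-2,8-sialyltransferase-like LOC121424458 had 14.3, 32.5, 23.5 and 13.0 CPM in secondary and 29.9, 46.8, 38.6 and 34.7 CPM in primary spines, lower in secondary spines of each animal (log2 fold change -0.85 ± 0.31, edgeR adjusted p = 0.162; with the animal as a block, edgeR adjusted p = 0.00575). The fucosyltransferase LOC121431463 had 73.1 to 109 CPM in secondary and 94.0 to 134 CPM in primary spines (edgeR adjusted p = 0.453; with the block 0.0436), and the sulfotransferase LOC121418195 had 13.7 to 19.2 CPM in secondary and 6.99 to 14.3 CPM in primary spines (edgeR adjusted p = 0.457).

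In the machinery that makes and moves secretory proteins in general, each call, with or without the block, was lower in secondary spines. Over all genes tested 5.88% were called higher and 1.93% lower without the block, and 12.4% and 11.7% with it. Of 25 genes of N-glycan assembly and transfer edgeR called 1 lower and 0 higher, and with the block 6 lower and 0 higher (median log2 fold change -0.23). Of 24 genes of ER translocation and signal peptide removal 1 was called lower and 0 higher, and with the block 8 and 0 (median -0.33). Of 24 genes of the COPII and COPI vesicle coats and their cargo receptors 0 were called, and with the block 11 were lower and 0 higher (median -0.27). Without the block 6 of these 24 had an unadjusted p under 0.05, all lower, and DESeq2 called 1 lower. Of 16 ER folding and stress genes 0 were called, 0 had an unadjusted p under 0.05, DESeq2 called 0, and with the block 1 was lower (median -0.06). The ciliated cell markers given above moved the opposite way, at a median of 1.88 log2 units, and what part the mix of cells has in these values was not tested.

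The oligosaccharyltransferase subunit LOC121427251 (48 kDa subunit-like), part of the enzyme that transfers the N-glycan to new proteins, had 142, 130, 148 and 147 CPM in secondary and 232, 221, 185 and 200 CPM in primary spines. The groups did not overlap (log2 fold change -0.56 ± 0.11, edgeR adjusted p = 0.0158), and 2 of the 8 fits that left out a library lost the call, with edgeR adjusted p of 0.0555 (secondary library 2 left out) and 0.0510 (primary library 1 left out). The Sec61 beta-like LOC121421406, a subunit of the channel through which new proteins enter the ER, had 213, 197, 203 and 239 CPM in secondary and 414, 356, 269 and 334 CPM in primary spines. All secondary values were below the primary ones (log2 fold change -0.69 ± 0.15, edgeR adjusted p = 0.0229). That gene overlaps LOC121421384, and its call was kept in 3 of the 8 fits without a library, namely those without secondary library 4, primary library 3 or primary library 4, with edgeR adjusted p up to 0.0740 in the other 5. Calreticulin-like LOC121423636 had 247 to 331 CPM in secondary and 279 to 475 CPM in primary spines (log2 fold change -0.34 ± 0.18, edgeR adjusted p = 0.365), and the cargo receptor LOC121424768 had 25.6 to 35.1 CPM in secondary and 37.1 to 49.9 CPM in primary spines (log2 fold change -0.45 ± 0.15, edgeR adjusted p = 0.135; with the block 0.0255).

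Of 6 transcription factors of secretory cells 2 were called lower and 0 higher, where 1.93% of all genes tested were lower and 5.88% higher. Another 2 of the 6, not named here, had a log2 fold change above 0 and were not called. The CREB3L2-like LOC121405833, a relative of factors that raise expression of secretory pathway genes in mammals, had 120, 116, 128 and 93.9 CPM in secondary and 233, 230, 262 and 161 CPM in primary spines. No secondary value reached a primary one (log2 fold change -0.95 ± 0.17, edgeR adjusted p = 0.0106), and the call was kept without each of the 8 libraries. The forkhead factor LOC121419318 (HNF3-beta-like) had 100, 85.2, 129 and 61.3 CPM in secondary and 332, 223, 534 and 231 CPM in primary spines (edgeR adjusted p = 0.0127). The Ets factor LOC121421387, like mammalian SPDEF, a factor of goblet cells, had a difference of -0.42 log2 units and was not called (edgeR adjusted p = 0.368; with the animal as a block -0.39, edgeR adjusted p = 0.0303).

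**Figure D4:**
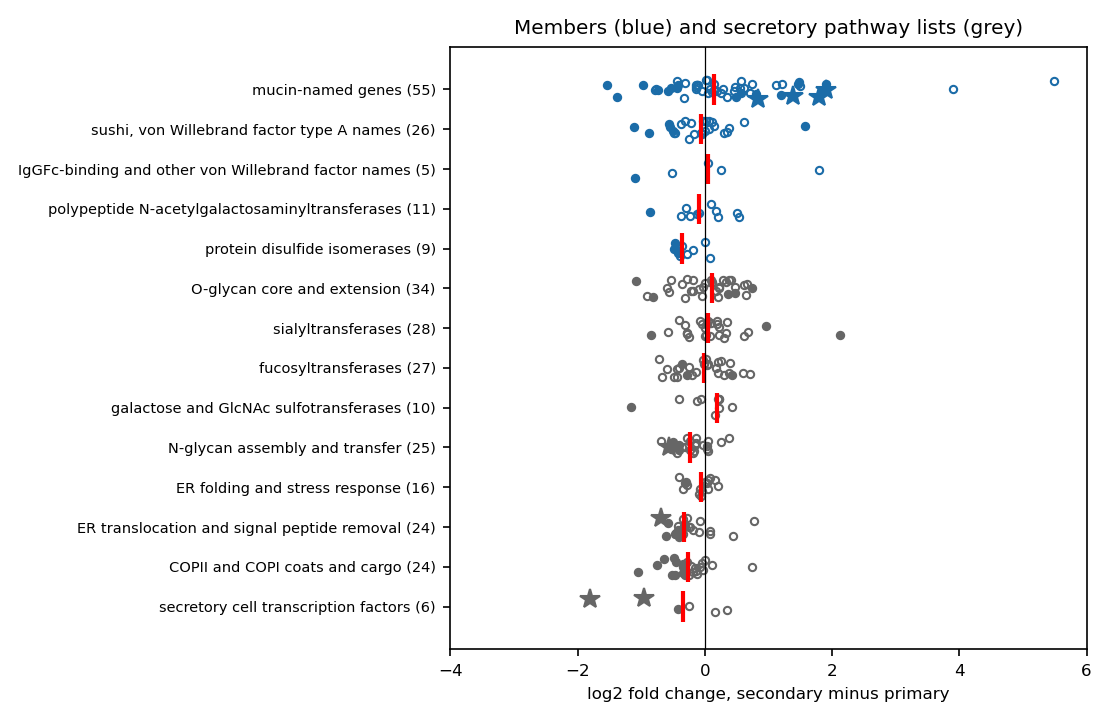
Log2 fold change (secondary minus primary, horizontal axis) of each tested gene, by member group (blue) and by secretory pathway list (grey), with the number tested in brackets, stars for genes called by edgeR, filled circles for those called when the animal is a block and not without it, and a red line at the median. The medians of protein disulfide isomerases (-0.37), ER translocation (-0.33) and vesicle coats (-0.27) lie below 0, and that of the mucin-named genes (0.14) above it, with the widest spread.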

How the data were processed

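The deposited files hold read counts per gene for 26814 genes, which per the file headers are whole numbers, and FPKM values for the same genes. Per the submitters' processing notes the authors used HISAT2 2.0.5 and featureCounts, with assembly 3.0 of the species as reference per the design text. The strand and multi-mapping settings are not given in the sources used here. Where genes overlap or are near-identical, their reads may not be told apart. The FPKM that the authors deposited were used only to compare levels between genes, as means over 8 libraries; they carry a scaling between libraries besides depth. Gene names, Swiss-Prot matches and domains come from the deposited table.

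Counts were tested with edgeR 4.0.16 in R 4.3.3 (TMM, filterByExpr, robust glmQLFit, glmQLFTest, two-sided, Benjamini-Hochberg over 16788 genes), with the kind of spine as the sole term. This fit leaves out the pairing by animal, so differences among animals count as its error. A standard error is the size of the log2 fold change over the root of its F statistic. Variance shares are from a two-way split of log2 CPM (prior count 2) by animal and kind of spine. The design text says that the same 4 animals gave both kinds, and the correlation of deviations from group means was 0.733 to 0.811 for libraries with the same number and -0.317 to -0.200 for the others, so numbers were taken as animals. Libraries of a group differed well beyond sampling noise. Alternatives were the animal as a block, DESeq2 1.42.0, other scalings, no filter, a gene length correction and leaving out each library. The fits were tested on simulated counts, drawn at each fit's own common spread and without animal effects. Without the block the fit called 2% of genes changed by 1 log2 unit and 50% of those changed by 2. With the block it called 84% and 98%.

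The members, the lists and the tests were chosen with earlier results of these data known. Named were LOC121424405 and LOC121409342, the called members, up to 8 called only with the block by smallest p, the 2 of highest FPKM in each name group, and from each pathway list up to 3 called genes or else the most abundant. Any other gene named was picked after its values were seen. Some pathway and marker name patterns were narrowed after the names in the table were read.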

Additional observations from a re-analysis of the deposited data

Results flagged for a closer look

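Of 64 groups of 4 libraries tested, for 32 named genes, 11 held a library whose gap to its nearest neighbor passed Dixon's critical value for 4 values. For independent, normally distributed values chance gives about 1 in 20. The same animals gave both kinds of spine, and CPM values need not be normal, so the 11 cannot be weighed against that rate. Animal 2 stood apart for the SVEP1-like LOC121425924, at 196 CPM in secondary spines (others 4.56 to 12.4 CPM) and 59.5 CPM in primary spines (others 2.04 to 7.59 CPM). The same animal was low in secondary spines for LOC121421077, at 186 CPM against 897 to 918 CPM, and for the protein disulfide isomerase LOC121422269, at 378 CPM against 543 to 577 CPM. In animal 1 the secondary library was high for LOC121415355 (197 CPM, others 143 to 147 CPM) and for LOC121426288 (55.0 CPM, others 20.03 to 23.4 CPM) and low for LOC121415649 (169 CPM, others 529 to 603 CPM). The primary library of animal 1 was high for LOC121424266, at 10.1 CPM against 0.738 to 1.10 CPM. Secondary library 3 was high for LOC121425028, at 154 CPM against 58.0 to 65.5 CPM. Secondary library 4 was low for LOC121426392, at 77.6 CPM against 96.6 to 97.9 CPM. LOC121420906, whose level was too low to be tested, had 0.299 CPM in primary library 2 and 0 in the other primary libraries.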

How the results depend on the processing

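The count of members called higher (4) was 3 to 5 without each library, and became 12 with the replicate block, 14 with the block in DESeq2, 10 with the block and a gene length correction, and 9 to 11 with the block and each animal left out. The count called lower (0) became 18 with the replicate block, 16 with the block in DESeq2, 5 in DESeq2, 1 with the length correction, 25 with both the length correction and the block, and 9 to 12 with the block and each animal left out (9 without animal 1 or 2, 11 without animal 3, 12 without animal 4). The median log2 fold change (0.01) was 0.174 with library size scaling, 0.0678 with no filter, -0.0915 with the length correction, -0.0558 with that and the block, -0.0352 to 0.0914 without each library, and -0.0561 to 0.0432 with the block and each animal left out, and so changed sign among them. The cause of these moves was not tested, other than that each fit without a library has fewer samples. Library size scaling moved the median of all genes from -0.03 to 0.14, the share of calls that were higher from 75.3% to 87.9%, and gave 6 members higher and 0 lower. The medians of the protein disulfide isomerases, N-glycan assembly, ER translocation and vesicle coat lists stayed below 0 in the alternatives run, at -0.43 to -0.20, -0.28 to -0.07, -0.44 to -0.15 and -0.33 to -0.11. Without SVEP1-like names, a choice made after seeing the data, 4 were higher and 0 lower. The count present in some animals (10) was 5 and 12 at the other levels tried, also chosen after seeing the data. Low levels left 76 of the 131 mucin-named genes untested.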

Other observations

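Subunits of ER translocation and of the vesicle coats were looked at with the animal as a block, chosen after their values were seen. The translocon-associated protein subunits alpha (LOC121407090), beta (LOC121415559), gamma (LOC121427605) and delta (LOC121411673) had blocked log2 fold changes of -0.55, -0.42, -0.63 and -0.47, with edgeR adjusted p of 0.0106, 0.0359, 0.0108 and 0.0177. Without the block the edgeR adjusted p of these 4 genes lay between 0.155 and 0.345. Of 9 genes named coatomer subunit 6 were called lower and 0 higher with the block. The other 3, alpha (LOC121420436), beta (LOC121405693) and a delta copy (LOC121419854), had blocked log2 fold changes of -0.14, -0.26 and -0.22 (edgeR adjusted p = 0.303, 0.0912 and 0.138). Among the 6, gamma-2 (LOC121411339) and another delta copy (LOC121419812) had blocked log2 fold changes of -0.49 and -0.51 (edgeR adjusted p = 0.00594 and 0.0146), against an edgeR adjusted p of 0.0659 and 0.527 without the block. A sialyltransferase of the alpha-2,6 type (LOC121424293) stood the other way, with a blocked log2 fold change of 2.08 (edgeR adjusted p = 0.00768; without the block, edgeR adjusted p = 0.119).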
